A study of Mus musculus with 2 samples.

Results

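The Dlk1 and Hmga2 cancer-like cells were 316 single cells from mouse peritoneal tumours, 153 in the control IgG library and 163 in the Activin A antibody library, of 3090 cells in the same window of quality and depth. They were selected on the summed counts of unique molecular identifiers (UMIs, the tags that mark single RNA molecules) of Dlk1, Hmga2 and Cdkn2a. A cell entered the group with at least 10 UMIs of these 3 genes together, under 20 UMIs of Col1a1, Col1a2, Col3a1 and Dcn together, at most 1 UMI of Cd3d, Cd3e and Cd3g, and at most 4 UMIs of C1qa, C1qb and C1qc. Except where other limits are given, all cells lay in one window of quality: between 1000 and 8500 genes, between 10000 and 100000 UMIs, and no more than 10% of UMIs from mitochondrial genes. Levels of the 3 selecting genes, and any contrast between these cells and other cells of the same tumours, are therefore descriptions.

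The tumours grew in female C57BL/6 mice of 6 to 8 weeks whose peritoneal wall had been abraded and which had received SO cells into the peritoneal cavity. SO cells are a mouse ovarian cancer line made from the ovaries of p53-/- mice (Trp53-/-) by adding Myc and Hras V12. One group received an antibody that neutralizes the beta A subunit of Activin A, and the other received control IgG. Both groups carried the same abrasion and the same cancer cells, and neither library held unabraded or tumour-free tissue. Tumours at the abrasion site were pooled within the group, dissociated with enzymes, freed of red cells and dead cells, and sequenced without sorting. Per the labels, 8 mice gave the antibody pool and 7 the IgG pool, at day 10, while the study's text gives another number of mice for the sequenced tumours. Because each group was 1 pooled library of 1 engineered line, no difference between the groups could be tested or checked against a replicate. All intervals below are exact 95% intervals that cover counting error only.

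Dlk1 encodes a membrane protein with EGF-like repeats that is expressed from the paternal allele in embryonic tissues and is shut down in most adult cells. Hmga2 encodes a chromatin protein of embryonic cells that is held down by let-7 microRNAs and returns in many carcinomas. Cdkn2a encodes the tumour suppressors p16Ink4a, an inhibitor of Cdk4 and Cdk6, and p19Arf, which acts through Mdm2 on p53 and is known to accumulate in cells that have lost p53. Activin A is a dimer of the protein encoded by Inhba, and signals through type II and type I receptors to Smad2 and Smad3.

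Over all barcodes, 98174850 UMIs were counted in the IgG library and 74117462 with the antibody. The cancer-like cells contributed 8067948 and 9100734 of them, with a median of 50409 UMIs and 6941 genes per cell in the IgG library and 55997 UMIs and 6953 genes in the antibody library. The other cells of the same window were shallower, with medians of 13979 and 15674 UMIs. Mitochondrial UMIs were 2.21% and 2.13% of the members' median cell. No barcode was shared between the members of both libraries, and 19 barcodes were shared among all cells of at least 1000 UMIs.

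In the genome (GRCm38, the mm10 build, GENCODE M21), Dlk1 lies on the plus strand of chr12:109452823-109463336, Hmga2 on the minus strand of chr10:120361275-120476469 and Cdkn2a on the minus strand of chr4:89274471-89294653. The sum of their UMIs was far from the limit in most members, with a median of 114 in the IgG library and 108 in the antibody library, from 10 to 1016 and from 18 to 602. The highest sum just under the limit was 7 in the IgG library and 6 in the antibody library, among cells that passed the other limits. Of those, 136 and 100 cells had a sum of 0, and 2 and 1 had a sum of 5 to 9. Most cells thus had either none or many of these transcripts.

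Dlk1 stood at 1256 CPM (UMIs of the gene per 1000000 UMIs of the group; interval 1232 to 1281) in the IgG library and 1165 CPM (1143 to 1187) with the antibody. Hmga2 stood at 450 CPM and 442 CPM, and Cdkn2a at 880 CPM and 788 CPM, in the same order. At least 1 Dlk1 UMI was found in 149 and 158 members, at least 1 Hmga2 UMI in 146 and 154, and at least 1 Cdkn2a UMI in 152 and 163, so the 3 genes were found together in nearly every member. Counting at the 3′ end does not separate p16Ink4a from p19Arf.

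Further markers supplied with the group were not used to select it. Lgals7, which encodes galectin-7 of stratified epithelia, stood at 1836 CPM in the IgG library and 1900 CPM with the antibody and was found in all 316 members. Mid1, an X-linked ubiquitin ligase that binds microtubules, stood at 712 CPM and 750 CPM. Krt18, a keratin of simple epithelia, stood at 550 CPM and 790 CPM.

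Other cells from the same libraries, all with a rule sum under 10, formed 4 classes for comparison. Mesothelial-like cells (35 and 28) had at least 10 UMIs of Msln, Upk3b, Lrrn4 and Nkain4, collagen-high cells (114 and 94) at least 20 of the collagens and Dcn, C1q-high cells (293 and 34) at least 20 of the C1q genes, and Cd3-high cells (871 and 433) at least 5 of the Cd3 genes. Lgals7, Krt18 and Mid1, the given markers outside the rule, were all 3 higher in the cancer-like cells than in each class in both libraries, while the rule itself set the rule genes apart. Of all 9947 genes that reached 5 CPM in 1 library, 22.0% were higher in the cancer-like cells than in all 4 classes in both libraries and 10.3% were lower. The mesothelial-like cells came nearest for Krt18, at 347 CPM and 224 CPM, and for Lgals7, at 400 CPM and 543 CPM, and the collagen-high cells for Mid1, at 69.3 CPM and 107 CPM.

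**Figure D1:**
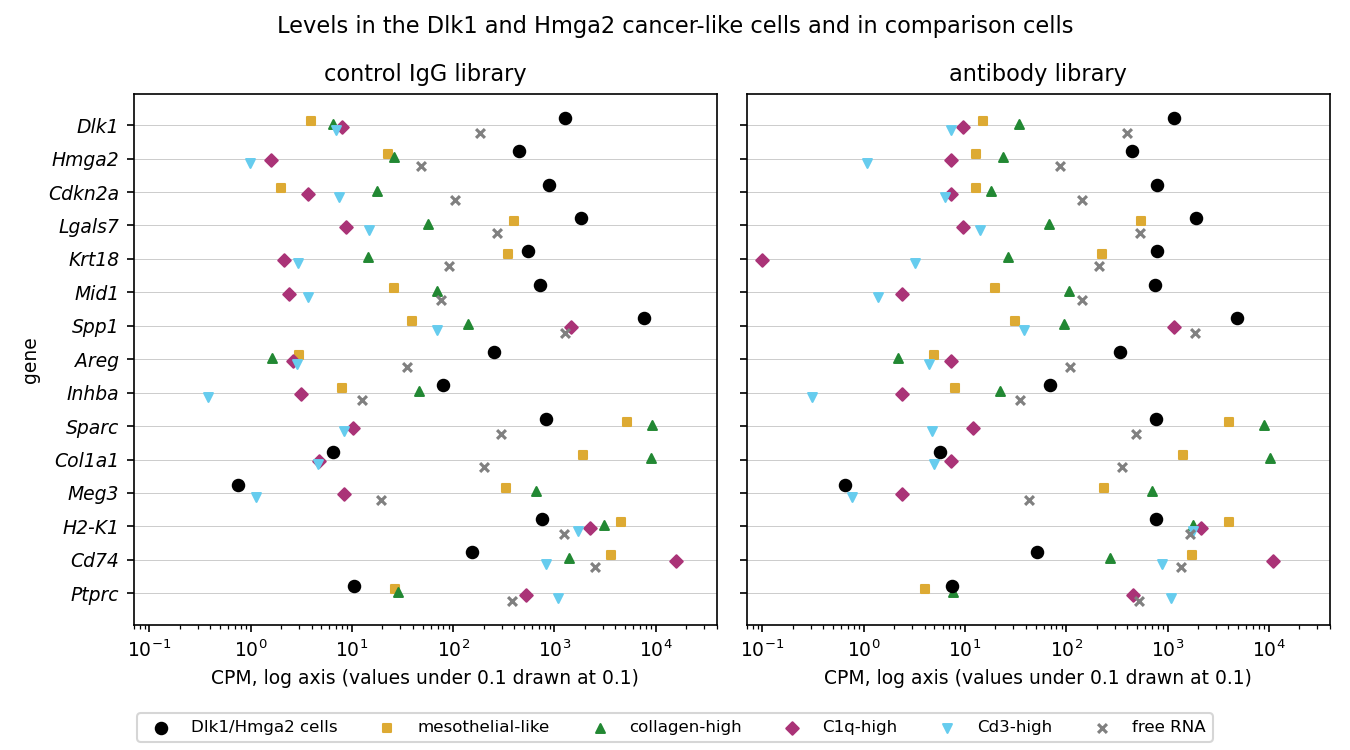
Levels (CPM, log axis) of 15 genes in the Dlk1 and Hmga2 cancer-like cells, the 4 comparison classes and free RNA (barcodes under 100 UMIs), with the control IgG library on the left and the antibody library on the right. The black points of Dlk1, Hmga2, Cdkn2a, Lgals7, Krt18, Mid1, Spp1 and Areg lie to the right of every other cell class, whereas those of Sparc, Meg3 and H2-K1 lie to the left of the collagen-high cells.

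Epithelial genes were found only in part. Krt18 was abundant, but its usual partner Krt8 stood at 11.8 CPM in the IgG library and 5.16 CPM with the antibody and Krt7 at 0.12 CPM and 0.33 CPM. Krt5, Krt6a, Krt14, Krt17, Krt20, Dsp, Dsg2 and Dsc2, which build keratin filaments and desmosomes, were at 0 in both libraries. Epcam, an epithelial adhesion molecule, stood at 23.7 CPM and 34.5 CPM, Cdh1 (E-cadherin) at 1.36 CPM and 0.55 CPM, and Muc16 and Cldn4 at 0. The 12 epithelial markers summed to 614 CPM and 877 CPM, most of it Krt18.

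Of genes of the ovarian surface and gonad, some were found and others were not. Wt1, a transcription factor of mesothelium and gonad, stood at 81.8 CPM and 87.5 CPM, Star, which moves cholesterol into mitochondria for steroid synthesis, at 30.1 CPM and 37.8 CPM, and Nr5a1, the factor that drives steroidogenic genes, at 14.998 CPM and 15.1 CPM. Fshr, Cyp19a1 and Cyp17a1, which mark hormone-responsive granulosa and theca cells, were at 0. Of the 9 granulosa and theca markers, 6 were detected and 4 reached 5 CPM in 1 library. In both libraries 2 of the 9 were higher than in all 4 classes, beside 22.0% of all genes. That count lay near the share of all genes. The list summed to 62.3 CPM and 61.8 CPM in the members. Collagen-high cells had 63.3 CPM and 59.4 CPM of it, and mesothelial-like cells 88.1 CPM and 105 CPM. These genes thus did not set the members apart, and the name "cancer-like" rests on the selecting genes.

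Markers of other cells were low but not absent. The 10 fibroblast markers summed to 166 CPM in the IgG library and 139 CPM with the antibody, led by Col3a1 at 93.2 CPM and 86.1 CPM, against 38660 CPM in collagen-high cells of the IgG library. The limits on Col1a1, Col1a2, Col3a1, Dcn, Cd3 and C1q UMIs hold these sums down in the members, and the collagen-high cells were chosen for the same collagens. The 9 leukocyte and T cell markers summed to 39.8 CPM and 23.6 CPM, led by Ptprc at 10.4 CPM in the IgG library. The 8 macrophage markers summed to 40.8 CPM and 14.6 CPM, led by Lyz2 at 14.9 CPM and 5.82 CPM. In free RNA, taken from barcodes under 100 UMIs, the leukocyte list summed to 2306 CPM and 2549 CPM and the macrophage list to 2109 CPM and 1265 CPM. Hbb-bt, Hba-a1 and Hba-a2 of red cells, Emcn and Lyve1 of endothelium and Csf3r and Ngp of neutrophils were at 0. Leaving out cells with any Ptprc, Cd3 or C1q UMI left 36 and 92 members.

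The engineered genes came next. Trp53, deleted in the mice of origin, stood at 142 CPM (133 to 150) in the IgG library and 137 CPM (129 to 145) with the antibody, above 59.6 CPM and 59.99 CPM in the collagen-high cells. Reads at the 3′ end of the gene can come from a transcript of a disrupted allele, so this level says nothing about the deletion. Myc stood at 56.0 CPM and 58.0 CPM, about the 56.8 CPM and 59.99 CPM of collagen-high cells, and Hras at 131 CPM and 114 CPM. Transcripts of added cassettes need not end like the mouse genes, and what share of them is counted is unknown.

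Genes around p53 and RB were uneven. Of 15 p53 targets, 4 were lower in the cancer-like cells than in all 4 classes and 2 were higher. Cdk4 and Cdk6, the kinases that p16Ink4a restrains, stood at 488 CPM and 345 CPM in the IgG library and at 427 CPM and 295 CPM in the antibody library. Ccnd1, their cyclin, stood at 209 CPM and 200 CPM, and Cdkn2b, the neighbour of Cdkn2a that encodes p15Ink4b, at 60.1 CPM and 48.0 CPM. Of the 18 genes of the INK4, RB and E2F list, Cdkn2a of the rule among them, 6 were higher than in all 4 classes and 3 lower, beside 22.0% and 10.3% of all genes.

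Ribosome biogenesis genes that Myc is known to drive were nearly all higher than in the other cells. Of 16 such genes, 15 were higher in the cancer-like cells than in all 4 classes in both libraries, beside 22.0% of all genes. Npm1, which encodes the nucleolar protein nucleophosmin, stood at 3307 CPM in the IgG library and 3652 CPM with the antibody, against 887 CPM and 1193 CPM in collagen-high cells. Ncl, which encodes nucleolin, stood at 1102 CPM and 1267 CPM, against 241 CPM and 320 CPM.

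Of 18 genes known to follow RAS and MAPK activity, 11 were higher than in all 4 classes, beside 22.0% of all genes. Dusp6, the phosphatase that turns ERK off, stood at 156 CPM and 160 CPM, Etv4, an ETS factor, at 83.9 CPM and 86.6 CPM, and Ier3, an early growth-response gene, at 429 CPM and 449 CPM. Of 10 genes of the EGF family, 3 were higher than in all 4 classes and none was lower, beside 22.0% and 10.3% of all genes. Areg (amphiregulin) stood at 251 CPM in the IgG library and 340 CPM with the antibody, where no comparison class passed 7.2 CPM, and Btc (betacellulin) stood at 73.0 CPM and 90.2 CPM. The receptor gene Egfr was low, at 23.9 CPM and 20.3 CPM, against 415 CPM and 303 CPM in the collagen-high cells.

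Of 11 oncofetal and let-7 target genes, Hmga2 of the rule among them, 7 were higher than in all 4 classes and 1 was lower. Of all genes, 22.0% were higher and 10.3% lower. Igf2bp2 and Igf2bp3, which bind growth-factor mRNAs, stood at 80.6 CPM and 34.3 CPM in the IgG library and at 75.8 CPM and 34.9 CPM in the antibody library. Lin28b, which blocks let-7, stood at 13.6 CPM and 14.4 CPM. Meg3, the maternally expressed RNA of the same imprinted cluster as Dlk1, stood at 0.74 CPM and 0.66 CPM in the cancer-like cells, against 657 CPM and 705 CPM in the collagen-high cells, which had 6.45 CPM and 33.8 CPM of Dlk1. The difference in Dlk1 was set by the rule. Meg3 was not used by it, but it went with collagen, which was, at 23.7 CPM and 48.2 CPM in cells left out with 40 or more collagen and decorin UMIs. H19 stood at 72.3 CPM and 39.01 CPM, with 84.6% and 78.9% of its UMIs in 5 cells.

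Among genes of at least 50 CPM in both libraries and by the smaller of the ratios in the IgG and antibody libraries, the largest ratios over collagen-high cells belonged to Cst12, Snap25, Areg, Add2 and Spp1. Cst12, a cystatin, stood at 60.6 CPM in the IgG library and 61.6 CPM with the antibody, with no UMI in collagen-high cells, and was found in 27.5% and 33.1% of members. The 5 highest cells held 47.4% and 50.3% of its UMIs, and 58.1% and 63.8% of those of Gm35533. Snap25, a SNARE protein of secretory vesicles, stood at 67.7 CPM and 57.1 CPM. Chchd10 of the mitochondrial inner membrane and the potassium channel gene Kcnq5 were among the abundant ones, at 887 CPM and 608 CPM in the IgG library and at 824 CPM and 662 CPM in the antibody library. Kcnq5 was shared with Cd3-high cells, at 252 CPM and 256 CPM. Ifitm1, at 704 CPM and 688 CPM in the members, was shared with C1q-high cells, at 444 CPM and 1120 CPM. Cd3-high cells held 370 CPM and 292 CPM of Ifitm1. Cst6, Uhrf1bp1, Gm35533, Gm41609, Ifitm1, Btc and Slc22a23 completed the first 20 together with Cdkn2a, Dlk1, Krt18, Lgals7, Hmga2 and Gm47283, which is annotated on the Y chromosome with close copies and whose counts are uncertain.

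Spp1, which encodes the secreted phosphoprotein osteopontin, had 7677 CPM (7616 to 7738) in the IgG library and 4893 CPM (4848 to 4939) with the antibody, above all 4 classes. C1q-high cells came next with 1453 CPM and 1154 CPM. Its level was 0.65 lower on the log2 scale with the antibody (−0.67 to −0.63). It was also lower in the collagen-high (−0.55), Cd3-high (−0.85), C1q-high (−0.33) and mesothelial-like (−0.35, interval −1.08 to 0.36) cells. With under 5 collagen and decorin UMIs allowed per cell, the ratio in the cancer-like cells was −0.25.

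Antigen presentation genes were low. Of 13 genes of the MHC class I pathway, 10 were lower in the cancer-like cells than in all 4 classes in both libraries, and of 20 interferon-stimulated genes 13 were. Of all genes, 10.3% were lower in this way. B2m, the invariant chain of class I, stood at 1020 CPM in the IgG library and 926 CPM with the antibody, against 1550 CPM and 1574 CPM in Cd3-high cells, the lowest of the other classes in both. H2-K1 and H2-D1, whose sequences are close enough that reads may be shared, stood at 748 CPM and 750 CPM in the IgG library and at 771 CPM and 701 CPM in the antibody library. The free RNA held more of each, with 1238 CPM and 1666 CPM of H2-K1. The class I list differed little between the libraries, with 6 genes higher and 7 lower and a median log2 ratio of −0.09. Of all 9947 genes, 4079 were higher and 5868 lower with the antibody, with a median of −0.06.

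Members differed among themselves in division genes. After each cell was thinned to 10000 UMIs, 41.2% of members (33.3 to 49.4) in the IgG library and 45.4% (37.6 to 53.4) in the antibody library had at least 10 UMIs of 20 mitosis genes, against 6.14% and 8.51% of collagen-high cells and 75.8% and 77.6% of Cd3-high cells. The 2 intervals for the cancer-like cells overlapped. All 20 mitosis genes were higher than in the collagen-high and C1q-high cells in both libraries, and all 20 were lower than in the Cd3-high cells. Against the mesothelial-like cells, of which 25.7% and 21.4% had at least 10 such UMIs, 9 of the 20 were higher and 2 lower in both libraries. Of all 9947 genes, 4863 were higher than in the collagen-high cells and 5702 than in the C1q-high cells in both libraries. Against the Cd3-high cells 4273 were lower, and against the mesothelial-like cells 4937 were higher and 3230 lower.

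Across the thinned members, Spp1 was the most variable gene by the ratio of variance to mean, which was not corrected for level. Its mean was 74.5 UMIs in the IgG library and 50.8 UMIs in the antibody library. Its UMIs had a variance 91.1 times the mean in the IgG library and 59.6 times in the antibody library, where the median of 2811 genes was 1.29 in both. The median member held 49 and 33 Spp1 UMIs, and the range from the 10th to the 90th percentile ran from 9 to 167 and from 6 to 117. Trf (transferrin, the iron carrier of plasma) and S100a6 (a calcium-binding protein) followed, at 53.5 and 51.1 times and at 45.3 and 31.7 times. Malat1, Fth1, Nupr1, Mgp, mt-Co1, Dlk1, H19, Tmsb4x, Clu, Fn1, Kctd14 and Lgals1 completed the first 15. Dlk1, at 22.5 and 14.7 times, varied more than Lgals7, at 9.07 and 9.16 times.

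Some gene groups varied together across members. Over 153 and 163 thinned cells, and with genes in both lists counted in neither, the Spearman correlation between replication and mitosis genes was 0.57 in the IgG library and 0.48 in the antibody library. The correlation was 0.60 and 0.45 between MHC class I and interferon-stimulated genes, and 0.42 and 0.63 between glycolysis and hypoxia genes. Cells rich in ribosome biogenesis genes held fewer class I transcripts, with a correlation of −0.37 and −0.45. EGF family genes ran with Hmga2 (0.30 and 0.34) and Dlk1 with Krt18 (0.29 and 0.31). The points of each value share a library and a fixed total, 171 pairs were computed, and the values describe these cells only.

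The level of whole chromosomes relative to the comparison cells was uneven too. Over collagen-high cells, the median log2 ratio of 147 genes of chromosome X was 0.37 above that of all genes in the IgG library and 0.41 above in the antibody library. Genes of chromosome 4, which carries Cdkn2a, were lower by the same measure, at −0.32 and −0.35, as were those of chromosome 14 (−0.33 and −0.35) and chromosome 16 (−0.38 and −0.43). These chromosomes had the same sign over all 4 classes in both libraries. So did chromosomes 1, 2, 5 and 10, which lay above all genes, and chromosome 17, which lay below. The contrasts with the 4 classes share the same members, so they are not independent. Xist, the RNA that silences 1 X chromosome in female cells, stood at 1140 CPM and 1083 CPM, against 575 CPM and 584 CPM in the collagen-high cells. Uty, Kdm5d and Eif2s3y of the Y chromosome were at 0.

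**Figure D2:**
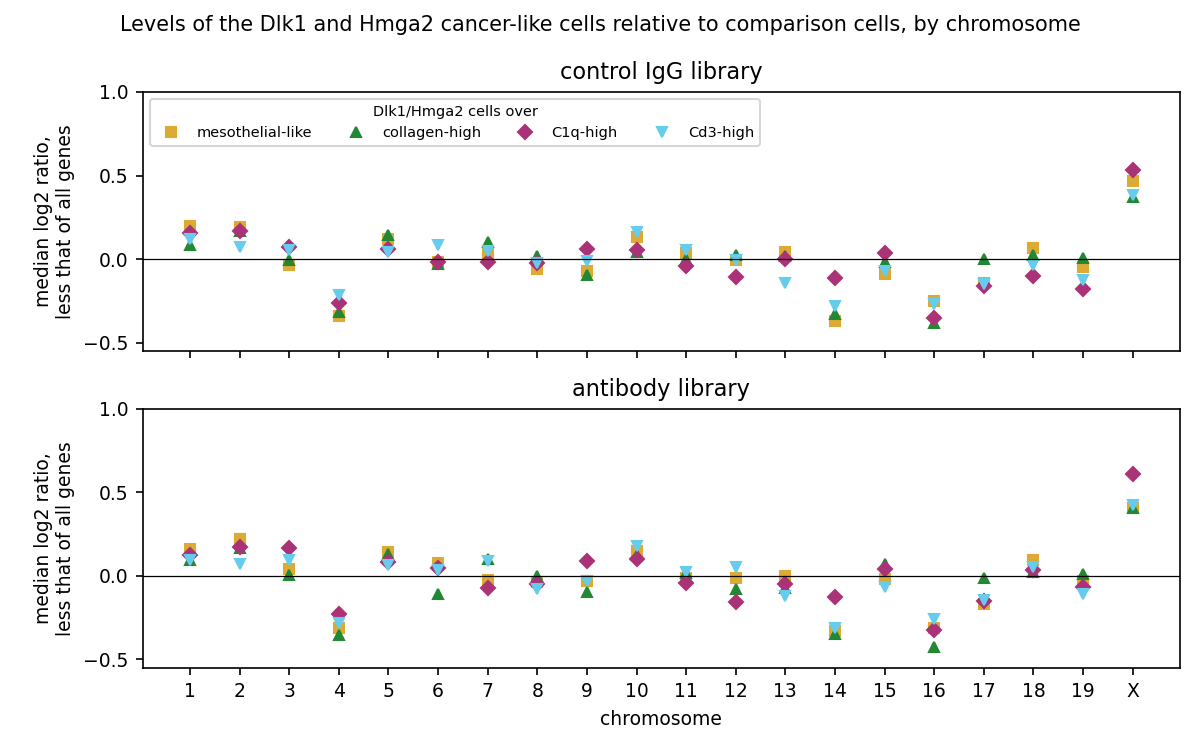
Median log2 ratio of gene levels in the Dlk1 and Hmga2 cancer-like cells over each comparison class, by chromosome, relative to the median of all genes, for the control IgG and antibody libraries. Chromosome X lies above 0 and chromosomes 4, 14 and 16 lie below 0 for every class in both panels, as do chromosomes 1, 2, 5 and 10 (above) and 17 (below).

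Between the groups the comparison was that of the antibody with control IgG. The cancer-like cells made up 7.78% (6.63 to 9.05) of the cells with 10000 to 100000 UMIs in the IgG library and 14.5% (12.5 to 16.7) in the antibody library, a log2 ratio of 0.90 (0.57 to 1.23). It was 2.16 when members with any leukocyte UMI were left out (36 and 92 stayed). That limit was put on the members only, and the share was still taken of all cells of the window. Of the cells with 1000 to 100000 UMIs the cancer-like cells were 1.74% (1.48 to 2.04) and 2.55% (2.18 to 2.97), a log2 ratio of 0.55 (0.22 to 0.88). Their number was nearly equal, at 153 and 163. The other cells of the window numbered 1814 in the IgG library and 960 in the antibody library, of which C1q-high cells made up 293 and 34. The share depends on the recovery of every other cell, and among cells with a rule sum of at least 10, the limit on Cd3 UMIs left out 90 and 42 and the limit on collagen 155 and 184.

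Within the cancer-like cells most genes had similar levels in both libraries. Of 9947 genes, 84 (0.844%) were at least 2-fold higher in the antibody library and 121 (1.22%) at least 2-fold lower, and 92.1% lay within 1.5-fold. The median log2 ratio of all genes was −0.06, with 4079 genes higher and 5868 lower by any amount. The counts grew with fewer cells or UMIs, to 153 and 220 among members of at most 60000 UMIs, 188 and 229 with under 5 collagen and decorin UMIs per cell, 305 and 452 without cells with any leukocyte UMI, and 261 and 442 after thinning to 10000 UMIs. Without the 5 highest cells of each gene, 57 of the 84 and 105 of the 121 stayed 2-fold apart. Free RNA held more of the gene than the members in both libraries for 19 of the 84 and 50 of the 121. Centring on the median of all genes gave 96 higher and 103 lower, TMM scaling gave 102 and 100, and leaving out the 5 highest cells of each gene gave 93 and 176.

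**Figure D3:**
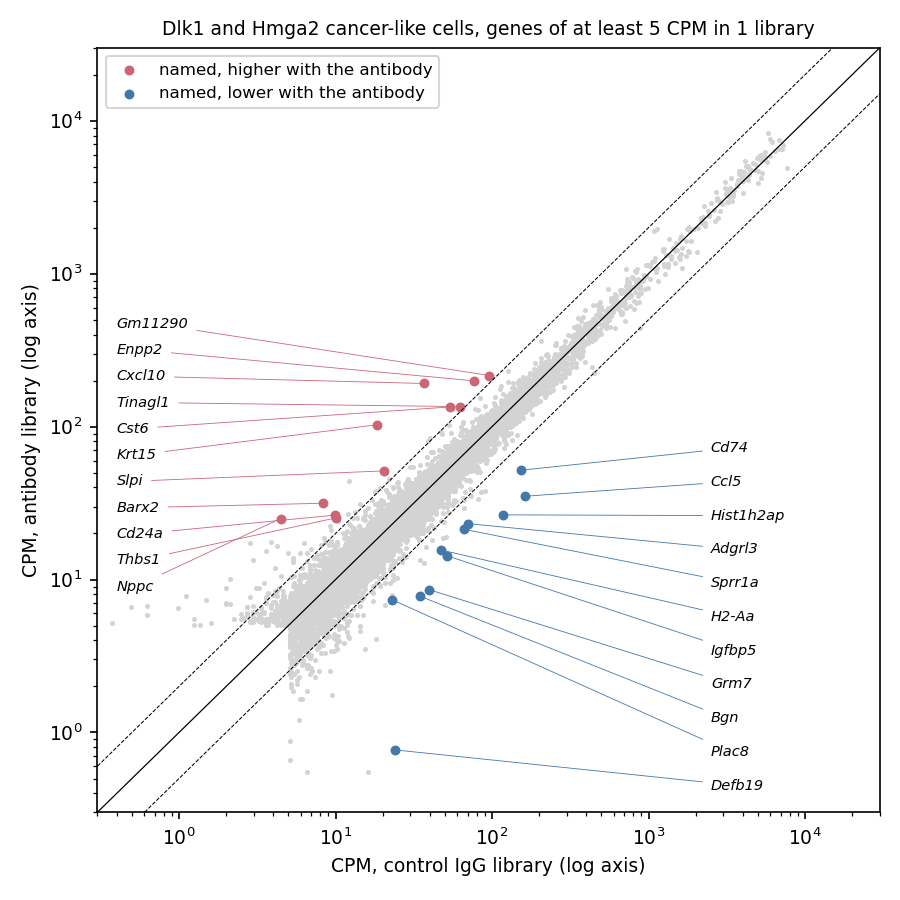
Level of the genes of at least 5 CPM in 1 library, as far as they lie within the axes, in the Dlk1 and Hmga2 cancer-like cells of the control IgG library (horizontal, CPM, log axis) and of the antibody library (vertical, CPM, log axis), with the line of equal levels and dashed lines at 2-fold. Most points lie between the dashed lines, and the coloured points are named genes among the highest (red) and lowest (blue) by the bound of the log2 interval nearest 0.

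Among genes of at least 20 CPM in 1 library that were higher with the antibody, Krt15, a keratin of basal epithelium, had the interval farthest from 0. It stood at 18.3 CPM (15.5 to 21.5) in the IgG library and 103 CPM (96.3 to 110) with the antibody, and its log2 ratio of 2.48 (2.23 to 2.75) was 2.65 without its 5 highest cells, and 19.6% and 41.7% of members held it. Barx2, a homeobox factor, stood at 8.30 CPM and 31.5 CPM, in 17.6% and 38.7% of members. Enpp2 (autotaxin, which makes lysophosphatidic acid) stood at 76.2 CPM and 199 CPM, a log2 ratio of 1.39 that was 0.52 with collagen limited to 5000 CPM of the cell, and Tinagl1, a matricellular protein, at 62.0 CPM and 135 CPM. These 4 genes were spread over more cells with the antibody.

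Some others of this group came from few cells. Cxcl10, an interferon-induced chemokine that draws T cells, stood at 36.8 CPM and 191 CPM, with 92.4% of the antibody library's UMIs in 5 cells, and its log2 ratio of 2.38 was 0.53 without the highest 5 in each library. Ifit1, an interferon-induced antiviral gene under the limit of 20 CPM, behaved alike, at 3.84 CPM and 17.5 CPM with a log2 ratio of 2.17 that was 0.21 without them. For Nppc (C-type natriuretic peptide) the 5 highest cells held 84.6% in the antibody library, and its log2 ratio of 2.47 was 1.73 without them. For the cystatin gene Cst6 they held 69.0%, and its log2 ratio of 1.33 was 0.49 without them and −0.16 among members of at most 60000 UMIs. Slpi, Gm11290, Cd24a and Thbs1 had log2 ratios from 1.17 to 1.41 that were 1.31 to 2.61 without the 5 highest cells, although these held 81.2% and 55.8% of Cd24a UMIs. Free RNA held more than the members of Slpi (126 CPM and 165 CPM), Gm11290 (194 CPM and 597 CPM) and Thbs1 (78.1 CPM and 87.6 CPM), and Gm11290 was also higher with the antibody in collagen-high cells, with a log2 ratio of 2.64.

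Of the genes lower with the antibody, several were genes of other cells in the tumour. Ccl5, a chemokine of T cells, stood at 163 CPM in the IgG library and 35.1 CPM with the antibody, while free RNA held 2736 CPM and 2787 CPM. In the IgG library 70.0% of its UMIs lay in 5 cells, and its log2 ratio of −2.21 was −1.38 without the highest 5, −0.25 without cells with any leukocyte UMI, −0.03 among members of at most 60000 UMIs and 0.17 with collagen limited to 5000 CPM of the cell. Cd74 and H2-Aa, of antigen-presenting cells, stood at 154 CPM and 47.1 CPM in the IgG library and at 51.9 CPM and 15.6 CPM in the antibody library, and free RNA also held less of both, with 2487 CPM and 1349 CPM of Cd74. All 6 MHC class II genes over 5 CPM were lower, with a median log2 ratio of −1.44, beside 5868 lower of all 9947 genes, but H2-Ab1 was at 0.029 with under 5 collagen and decorin UMIs per cell. Members with at least 1 Cd74 UMI were 83.0% in the IgG library and 42.9% in the antibody library. From haemoglobin, at 1 and 2 UMIs in the members, free RNA made up an estimated 0.43% and 0.293% of their UMIs, and so few UMIs do not fix that share. The log2 ratio of Cd74, −1.57, was −2.90 without cells with any leukocyte UMI, but −0.04 with under 5 collagen and decorin UMIs per cell.

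Bgn (biglycan), a proteoglycan of connective tissue, stood at 34.5 CPM and 7.80 CPM, against 2257 CPM and 1584 CPM in collagen-high cells. Grm7, a glutamate receptor, stood at 39.8 CPM and 8.57 CPM, and Adgrl3 (latrophilin-3), an adhesion receptor, at 70.4 CPM and 23.2 CPM, while free RNA held 7.33 CPM and 7.80 CPM of Grm7 and 7.65 CPM and 11.7 CPM of Adgrl3. Hist1h2ap, a histone gene with near-identical copies, stood at 117 CPM and 26.5 CPM and was lower in every comparison class too. Defb19, a beta-defensin, stood at 23.9 CPM and 0.77 CPM, with all of its UMIs in 5 cells of the IgG library and 1 cell of the antibody library, and its log2 ratio of −4.86 was 1.26 among members of at most 60000 UMIs and 2.15 without cells with any leukocyte UMI. Igfbp5, Sprr1a and Plac8 had log2 ratios from −1.85 to −1.63, and those of Igfbp5 and Sprr1a were −0.63 and −0.89 without their 5 highest cells. That of Sprr1a was 1.15 without cells with any leukocyte UMI.

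The mesenchymal list leaned the same way. Of 14 genes over 5 CPM, 2 were higher and 12 lower with the antibody, with a median log2 ratio of −0.23, beside 5868 lower of all 9947 genes and their median of −0.06. All 6 fibroblast markers over 5 CPM were lower too, with a median of −0.32. That median was 0.07 among members of at most 60000 UMIs and 0.23 after thinning to 10000 UMIs. The 7 myofibroblast and pericyte markers, of which only Myl9 reached 5 CPM, summed to 33.5 CPM in the IgG library and 16.3 CPM with the antibody. This sum was also lower with the antibody in collagen-high cells, at 2162 CPM and 368 CPM, and in mesothelial-like cells, at 536 CPM and 61.8 CPM. Prrx1, a homeobox factor of mesenchyme, stood at 81.3 CPM (75.2 to 87.8) in the IgG library and 33.7 CPM (30.1 to 37.7) with the antibody, and its log2 ratio was −1.27, and −1.30 without its 5 highest cells, but −0.69 with under 5 collagen and decorin UMIs per cell. Collagen-high cells had more Prrx1 with the antibody, at 165 CPM and 251 CPM. Snai1, a repressor of E-cadherin, stood at 57.4 CPM and 32.2 CPM, and Vim (vimentin) at 1802 CPM and 1381 CPM. S100a4 had a log2 ratio of −1.18, which was −0.69 without its 5 highest cells. Fn1 (fibronectin) and Sparc (osteonectin) had log2 ratios of −0.07 and −0.10.

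Secreted matrix and protease genes summed to 9150 CPM in the IgG library and 6021 CPM with the antibody, most of it Spp1. Of 10 genes, 8 were lower, with a median of −0.39, beside the same 5868 of 9947. Timp1, an inhibitor of metalloproteases, stood at 864 CPM and 657 CPM, and Mmp2 (gelatinase A) at 121 CPM and 79.0 CPM. Tnc, which encodes the matrix protein tenascin-C, stood at 22.8 CPM and 7.91 CPM, and was also lower in collagen-high cells, at 453 CPM and 70.9 CPM. Its log2 ratio in the cancer-like cells, −1.52, was −0.18 with collagen limited to 5000 CPM of the cell. In the keratin and desmosome list, Krt18 was 0.52 higher on the log2 scale (0.47 to 0.58), but 0.08 higher among members of at most 60000 UMIs.

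**Figure D4:**
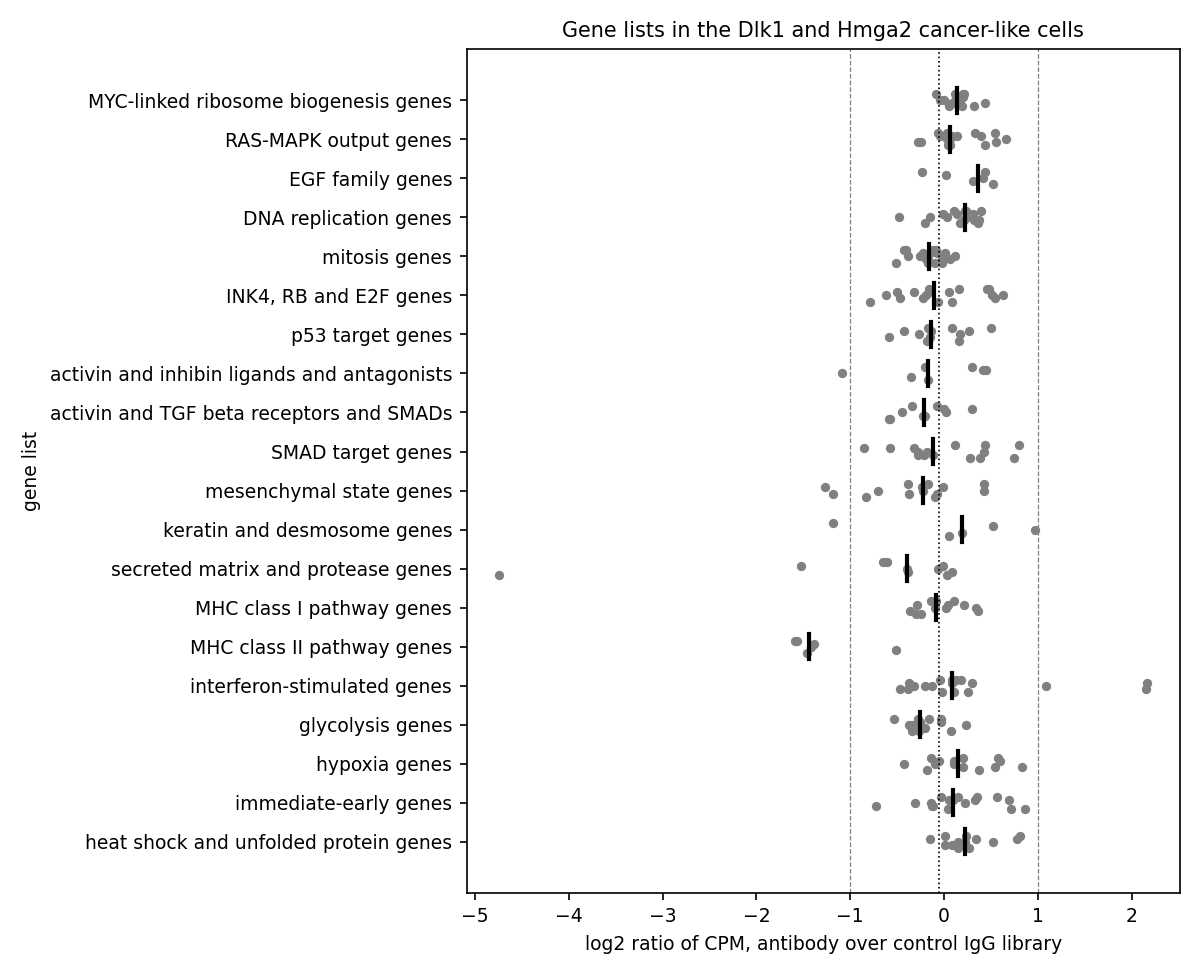
Log2 ratio of CPM, antibody over control IgG, of each gene of at least 5 CPM (points) in 20 of the gene lists within the Dlk1 and Hmga2 cancer-like cells, with the median of each list (bars), the median of all genes (dotted line) and 2-fold limits (dashed lines). The lists for ribosome biogenesis and replication have medians above the all-gene median of −0.06, and those for secreted matrix and MHC class II below it.

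Smaller shifts were seen in growth genes, beside 4079 higher and 5868 lower of all 9947 genes and their median of −0.06. Of 16 ribosome biogenesis genes, 13 were higher, with a median log2 ratio of 0.14, and of 18 replication genes 14 were, with a median of 0.22, but none reached 2-fold. Both lists also had medians above 0 in all 4 comparison classes, from 0.014 to 0.51 and from 0.091 to 1.09. The medians of all genes in these classes ran from 0.011 to 0.078. In Cd3-high cells the ribosome biogenesis median of 0.014 lay below the 0.045 of all genes. Of 20 mitosis genes, 17 were lower, with a median of −0.16. Of 6 EGF family genes, 5 were higher, with a median of 0.36. The most abundant, Areg, had a log2 ratio of 0.44 (0.36 to 0.52), which was −0.05 among members of at most 60000 UMIs. Glycolysis genes were lower, 14 of 16 with a median of −0.26, and this list was lower in all 4 comparison classes too, with medians from −0.49 to −0.15. Immediate-early genes, the first transcription factors that stimulated cells make, had a median of 0.10 here and of 0.40 to 0.51 in the other classes. The oxidoreductase gene Ero1l stood at 205 CPM and 364 CPM, a log2 ratio of 0.83 that was also positive in the collagen-high cells (0.67).

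The ligand that the antibody binds is encoded by Inhba, on the plus strand of chr13:16011851-16031621. The cancer-like cells held 79.2 CPM (73.2 to 85.6) of Inhba in the IgG library and 69.0 CPM (63.7 to 74.6) with the antibody, and 70.6% and 73.0% of members had at least 1 UMI. The log2 ratio was −0.20 (−0.36 to −0.04). Collagen-high cells held 45.9 CPM and 22.4 CPM, mesothelial-like cells 7.92 CPM and 7.98 CPM, C1q-high cells 3.16 CPM and 2.40 CPM and Cd3-high cells 0.38 CPM and 0.31 CPM, so the cancer-like cells lay above all 4 classes in both libraries. Free RNA held 12.6 CPM and 35.1 CPM.

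The value turned on the limit on collagen. Members with under 10 collagen and decorin UMIs held 82.4 CPM and 64.4 CPM of Inhba, and members with 10 to 19 held 72.2 CPM (62.1 to 83.4) and 82.2 CPM (71.0 to 94.6), the other order but with overlapping intervals. Under 5 collagen and decorin UMIs per cell in place of under 20, the Inhba log2 ratio was −0.40, and with a limit of 5000 CPM of the cell, chosen after seeing the data, it was 0.42 over 255 and 312 cells. The limit under 20 raw UMIs alone left out 109 and 165 cells with a rule sum of at least 10, whose median collagen and decorin level was 756 CPM and 926 CPM, against 34177 CPM and 36253 CPM in the collagen-high cells and 116 CPM and 83.3 CPM in the members. Cells over 100000 UMIs, of which 36 and 61 were found, all with a rule sum of at least 10, were outside the group as well.

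**Figure D5:**
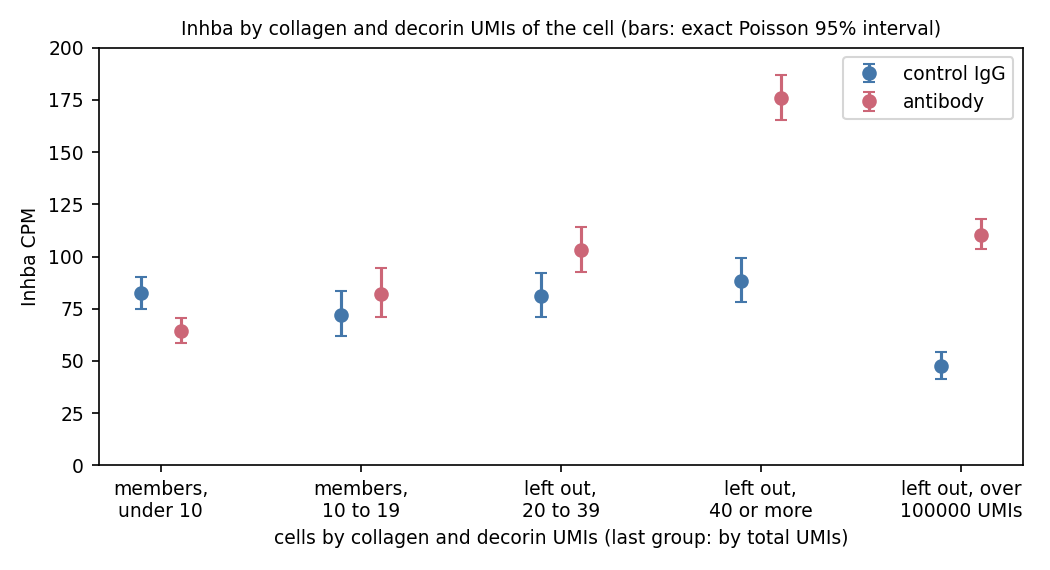
Inhba level (CPM) with exact 95% Poisson intervals in the Dlk1 and Hmga2 cancer-like cells with under 10 or with 10 to 19 collagen and decorin UMIs, in cells left out with 20 to 39 or with 40 or more, and in barcodes over 100000 UMIs, for the control IgG library (blue) and the antibody library (red). Among members with under 10 the antibody library lies at 64.4 and the IgG library at 82.4, among members with 10 to 19 they lie at 82.2 and 72.2, and in the cells with 40 or more they lie at 175.8 and 88.4.

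Other genes of the pathway were low or moderate. Inhbb and Inha, the other subunits of activins and inhibins, stood at 12.3 CPM and 10.5 CPM in the IgG library and at 16.7 CPM and 4.94 CPM in the antibody library. The antagonist Fst (follistatin) stood at 0.87 CPM and 0.66 CPM. Of 7 ligands and antagonists over 5 CPM, 3 were higher and 4 lower with the antibody, with a median of −0.17. Of all 9947 genes, 4079 were higher and 5868 lower, with a median of −0.06. The type II receptor genes Acvr2a and Acvr2b stood at 14.998 CPM and 6.45 CPM in the IgG library and at 18.5 CPM and 4.72 CPM in the antibody library, and Acvr1b, the main type I receptor of activin, at 1.12 CPM and 2.09 CPM. Smad2 stood at 37.7 CPM and 37.8 CPM, and Smad3 at 53.05 CPM and 53.7 CPM.

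Of 15 targets of Smad2 and Smad3, 7 were higher and 8 lower, with a median log2 ratio of −0.12, close to all genes, of which 5868 of 9947 were lower with a median of −0.06. Smad7 and Pmepa1, which feed back on the pathway, were lower with the antibody, at 31.2 CPM and 67.3 CPM in the IgG library against 20.99 CPM and 37.2 CPM. Tgfbi, a matrix adhesion protein, stood at 468 CPM and 628 CPM, and Bhlhe40, a circadian repressor, at 78.0 CPM and 130 CPM. Bhlhe40 was higher with the antibody in all 4 comparison classes, with log2 ratios from 0.27 to 0.76, whereas Pmepa1 was lower in 3 of them and Smad7 in 1. None of these differences between classes was tested.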

How the data were processed

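Single-cell 3′ libraries were made on the 10x platform. The authors ran Cell Ranger (7.0.1 in the processing notes; the file header names another version) on mm10 and deposited raw UMI counts per gene for all barcodes. Members and gene lists were chosen with earlier results of these data known. No doublet caller was run, since limits on Cd3, C1q and collagen UMIs and on total UMIs stood in its place. UMIs were summed per library, scaled to CPM and given exact Poisson intervals; shares had Clopper-Pearson intervals, and log2 ratios (0.5 UMI added to each sum) conditional binomial intervals. With 1 library per group no test was run. Genes of at least 5 CPM in 1 library were counted at 2-fold. Named genes were the rule genes and given markers, the highest and most different members of 45 fixed lists, the 12 highest and 12 lowest by interval bound (20 CPM or more), the 20 highest over collagen-high cells and the 15 most variable; other genes named from the lists were chosen after their values were seen, and some genes under this rule are not reported here. A symbol with 2 gene IDs stands for the one with more UMIs. Python 3.11.15, numpy 2.4.6, pandas 2.3.3, scipy 1.17.1, matplotlib 3.10.9 and, for TMM, edgeR 4.0.16 in R 4.3.3 were used; the script was tested on simulated data. Coordinates are from GENCODE M21. Alternatives covered cell limits, thinning, scaling, free RNA and level filters.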

Additional observations from a re-analysis of the deposited data

Results flagged for a closer look

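Inhba values at 3 places came from cells outside the comparisons and lay above the control library. In cells with a rule sum of at least 10 that were left out for 20 to 39 collagen and decorin UMIs, Inhba stood at 103.1 CPM (92.7 to 114.3) in the antibody library and 81.2 CPM (71.3 to 92.2) in the IgG library. In those left out for 40 or more it stood at 175.8 CPM (165.3 to 186.8) and 88.4 CPM (78.5 to 99.2), with Col1a1 at 502 CPM and 370 CPM and Meg3 at 48.2 CPM and 23.7 CPM. In barcodes over 100000 UMIs it stood at 110.5 CPM (103.6 to 117.8) and 47.3 CPM (41.2 to 54.1). Lgals7 in the cells with 40 or more collagen UMIs stood at 1183 CPM and 1535 CPM, below the 1900 CPM and 1836 CPM of the members, and doublets with collagen-high cells were not tested.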

How the results depend on the processing

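No paired analysis was possible because the labels hold 1 library in each group, and for the same reason no replicate could be left out. The log2 ratio of shares, 0.90, was 2.16 without members with any leukocyte UMI (36 and 92 cells left), a limit not put on the cells of which the share was taken. It was 0.55 over all cells of 1000 to 100000 UMIs. The counts of 84 higher and 121 lower genes became 153 and 220 among members of at most 60000 UMIs, 188 and 229 with under 5 collagen and decorin UMIs, 305 and 452 without leukocyte UMIs, 261 and 442 after thinning, 24 and 34 at a level of at least 20 CPM, and 2162 and 2614 with no filter on level; lower genes were 73 with collagen under 5000 CPM. The other alternatives kept both counts within 1.5 times. Fewer cells or UMIs enter the first 4 of these, and the cause was not tested further. The Inhba log2 ratio of −0.20 became −0.40 with under 5 collagen UMIs and 0.42 with collagen under 5000 CPM, an alternative chosen after seeing the data, as was leaving out the 5 highest cells of each gene. Of the 29 named or listed genes at 2-fold, 5 changed sign: Ccl5 to 0.17 (collagen under 5000 CPM), Cst6 to −0.16 and Defb19 to 1.26 (at most 60000 UMIs), Defb19 to 2.15 and Sprr1a to 1.15 (no leukocyte UMI), and H2-Ab1 to 0.029 (under 5 collagen UMIs). Of these 29, 11 fell below it with collagen under 5000 CPM, 7 with at most 60000 UMIs, and 6 without the 5 highest cells. With under 5 collagen and decorin UMIs 6 did, without leukocyte UMIs 4, and after thinning 2. Of 289 named or listed genes of any ratio, up to 47 changed sign under one setting, and medians of up to 11 of 40 lists did. Depth limits values of few UMIs, and a share of cells with a UMI moves with it.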
